A study of Mus musculus with 12 samples.

Results

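Genes of Notch signaling and early T-lineage identity were read in common lymphoid progenitors (CLPs) of mice that had, lacked, or re-expressed the long noncoding RNA Firre. The genes are Notch1, Notch2, Hes1, Dtx1, Tcf7, Bcl11b, Cd3e, Lck, Thy1, and Ptcra, 10 of the 47643 genes in the deposited expression table, and all 10 were found there by symbol. CLPs are bone marrow cells without lineage antigens and with low Sca1, low cKit, and IL7Rα, and were sorted by flow cytometry from adult male mice matched for age, 1 library per mouse. The 4 WT mice had an intact Firre locus and the 4 ∆Firre mice (KO in the labels) carried a germline deletion of the whole locus, made with a CMV-Cre and kept on C57BL/6J. The 4 Firre rescue mice carried the same deletion together with a Firre cDNA transgene under a tet-responsive promoter and a ubiquitous CAG-driven rtTA3, and were fed doxycycline. No library here came from a mouse given doxycycline or rtTA3 without the transgene, so that the transgene, rtTA3, and doxycycline cannot be told apart in this group.

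Notch receptors are cleaved after a ligand on a neighboring cell binds them, and the freed intracellular part joins RBPJ on DNA and turns on genes such as Hes1 and Dtx1. In lymphoid progenitors that reach the thymus, Notch1 signaling directs cells into the T lineage, first through Tcf7 (TCF-1) and later through Bcl11b, which secures T-cell commitment. Lck, Thy1, Cd3e, and Ptcra belong to the surface and signaling machinery that a developing T cell builds. In the marrow most CLPs go on to make B cells, and natural killer and other innate lymphoid cells also arise from this compartment.

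Firre itself was listed at 0 TPM (transcript abundance scaled for gene length and library size) in the 4 ∆Firre libraries, between 25.2 and 31.6 in WT, and between 59.9 and 174 in Firre rescue, as the labels state. Recovered reads, counted back from the ratios of TPM values between libraries, numbered 10512525 to 17397414 per WT library, 13743480 to 16809901 per ∆Firre library, and 24680248 to 31263987 per Firre rescue library. The Firre rescue libraries have a range of library numbers of their own, which makes it impossible to separate that range from the group, whereas WT and ∆Firre libraries are spread over both other ranges. CLP genes were present throughout, with Il7r between 353 and 525 TPM, Flt3 between 506 and 709, and Dntt between 4315 and 6725 in the 12 libraries. The 3 groups were compared with limma on log2(TPM + 1) over 14479 genes, and calls were made at 0.1 or less after Benjamini-Hochberg adjustment of p. Over all these genes the median difference was -0.06 between ∆Firre and WT, -0.16 between Firre rescue and ∆Firre, and -0.21 between Firre rescue and WT, and each difference stands beside that shift.

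Promoters (RefSeq, GRCm38.p6, from 250 bases before to 50 after a start site) were matched for 8 of the 10 genes, and those of Hes1 and Thy1 were not searched here. Promoters are shown because RBPJ, the DNA-binding partner of Notch, recognizes a core of TGGGAA, and TCF-1, the product of Tcf7, a core of CTTTGA. The RBPJ core was searched on both strands and was found in promoters of Cd3e, Lck, and Ptcra, 3 of the 8 genes and 3 of their 10 promoter entries. It was found in 25.6% of all 32851 promoter entries of this length. The TCF core was found in that of Bcl11b alone among these genes, and in 16.0% of all promoters. The sequences below run 5′ to 3′ on the gene's own strand, with the RBPJ core in capitals for the first 3 and the TCF core in capitals for Bcl11b. Bcl11b was added to the printed set because its level differed between groups.
Cd3e, chr9:45009562-45009861, minus strand: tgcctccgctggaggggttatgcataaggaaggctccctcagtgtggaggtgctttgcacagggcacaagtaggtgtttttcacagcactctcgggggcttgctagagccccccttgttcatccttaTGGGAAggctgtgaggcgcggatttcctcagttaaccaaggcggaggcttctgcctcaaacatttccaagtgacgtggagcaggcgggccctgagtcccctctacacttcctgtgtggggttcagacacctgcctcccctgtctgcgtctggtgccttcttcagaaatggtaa
Lck, chr4:129573592-129573891, minus strand: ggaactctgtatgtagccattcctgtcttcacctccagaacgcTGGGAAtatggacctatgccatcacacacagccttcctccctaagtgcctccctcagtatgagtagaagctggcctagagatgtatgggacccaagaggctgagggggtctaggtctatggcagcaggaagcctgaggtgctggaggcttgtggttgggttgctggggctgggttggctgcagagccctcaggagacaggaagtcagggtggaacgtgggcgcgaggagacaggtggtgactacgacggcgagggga
Ptcra, chr17:46763663-46763962, minus strand: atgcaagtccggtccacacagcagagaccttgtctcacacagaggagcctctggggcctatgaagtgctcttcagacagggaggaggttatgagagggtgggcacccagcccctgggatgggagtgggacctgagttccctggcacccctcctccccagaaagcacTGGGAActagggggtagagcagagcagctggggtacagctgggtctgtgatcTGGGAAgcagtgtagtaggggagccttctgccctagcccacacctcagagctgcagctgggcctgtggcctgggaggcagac
Bcl11b, chr12:108003365-108003664, minus strand: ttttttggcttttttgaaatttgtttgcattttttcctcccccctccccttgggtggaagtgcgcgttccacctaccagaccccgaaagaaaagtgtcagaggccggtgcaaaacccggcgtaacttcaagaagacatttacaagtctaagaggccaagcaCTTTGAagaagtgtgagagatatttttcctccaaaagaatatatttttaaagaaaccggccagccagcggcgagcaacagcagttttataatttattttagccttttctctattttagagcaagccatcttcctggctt
Counted from the start site, the core began at base -123 in Cd3e, at -207 in Lck, at -84 and -32 in Ptcra, and at -89 in Bcl11b. Lck had 2 promoter entries, and the other one, at chr4:129558323-129558622, held neither core, nor did those of Notch1, Notch2, Dtx1, and Tcf7. A match of these letters is a description of the sequence and not a measurement of binding.

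In WT CLPs the 10 genes spanned nearly the whole range of expression. Tcf7 was the highest at 192 ± 47.8 TPM (SD, n = 4 here and for every mean below), above 94.7% of the genes tested, and Lck followed at 132 ± 25.9. Next came Notch1 at 87.7 ± 2.47, Thy1 at 83.9 ± 38.4, Notch2 at 46.7 ± 2.63, Hes1 at 20.0 ± 2.57, and Bcl11b at 9.18 ± 1.78. Ptcra, Dtx1, and Cd3e were near or at 0, with means of 0.996, 0.319, and 0.243 TPM. The ranges of neighbors in this order over the WT libraries did not overlap, except for Tcf7 and Lck, Notch1 and Thy1, and the 3 lowest genes. Within each WT library Tcf7 was above Lck. Tcf7 and Lck were thus among the more abundant RNAs of the sorted pool, in which Cd3e, a chain of the T cell receptor complex, was nearly undetected. The order was the same in ∆Firre except that Thy1 stood above Notch1, and in Firre rescue except that Thy1 stood below Notch2.

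**Figure D1:**
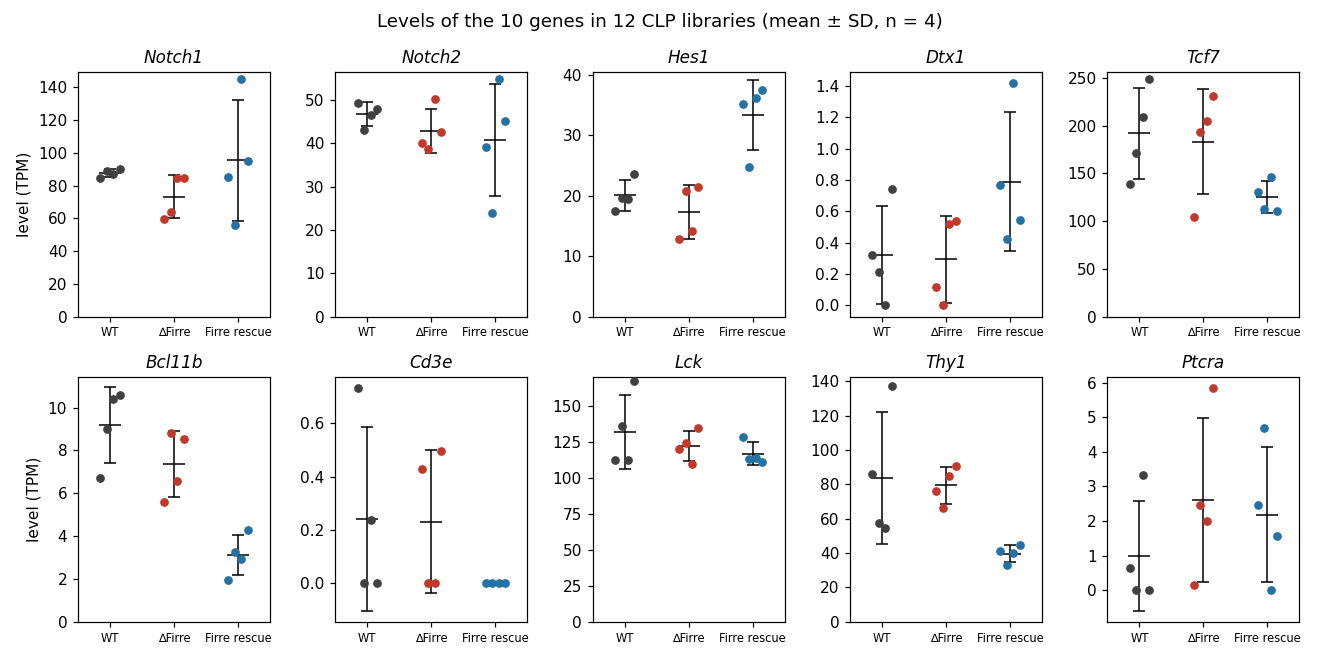
Level of each of the 10 genes in TPM (vertical axes, linear, 1 scale per gene) in the 4 WT, 4 ∆Firre, and 4 Firre rescue libraries; points are libraries, and bars are the mean ± SD. The Firre rescue points of Hes1 lie above all others, and those of Bcl11b and Thy1 lie below all others, whereas the points of the other 7 genes overlap between groups.

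Between ∆Firre and WT none of the genes was called. Of the 8 that passed the filter of a mean TPM of at least 1, 0 were called, against 0.0207% of all genes tested (3 of 14479), 0 had an unadjusted p under 0.05, and limma-voom on the recovered reads also called 0. No gene had libraries of the 2 groups apart, against 5.33% of all genes. The fitted differences ran from -0.28 for Bcl11b to 0.01 for Thy1, and to 0.88 for the low gene Ptcra, with adjusted p-values of 0.986 or more. Their 95% intervals bound what could have been missed: -0.36 to 0.17 for Lck, -0.75 to 0.21 for Notch1, and -0.81 to 0.25 for Bcl11b. A fall of Hes1 by more than 0.65 or of Tcf7 by more than 0.60 on the log2 scale lay outside the intervals.

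Between Firre rescue and both other groups, Hes1 rose while Bcl11b and Thy1 fell, and the receptors, Lck, and Ptcra were not called. Of the 8 tested genes 3 were called against ∆Firre, 1 higher and 2 lower, where 27.9% of all genes tested were called, 8.58% higher and 19.3% lower. The same 3 were called against WT, where 24.3% of all genes were called, 4.82% higher and 19.4% lower. Their libraries were apart in both comparisons, as were those of 21.9% and 18.0% of all genes. With so many genes called, the count of 3 is no more than a description of these genes. The 2 comparisons share the Firre rescue libraries, so each is given with its own values. The balance of directions depended on the scaling: 1242 genes were called higher and 2801 lower against ∆Firre, but 1889 and 1875 after median ratio rescaling, and 698 and 2814 against WT became 1288 and 1256. GC correction turned the balance, with 1795 higher and 759 lower against ∆Firre (median difference 0.08) and 1336 higher and 660 lower against WT (median difference 0.04). The median difference of the 8 genes was -0.15 against ∆Firre and -0.20 against WT, beside -0.16 and -0.21 over all genes.

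**Figure D2:**
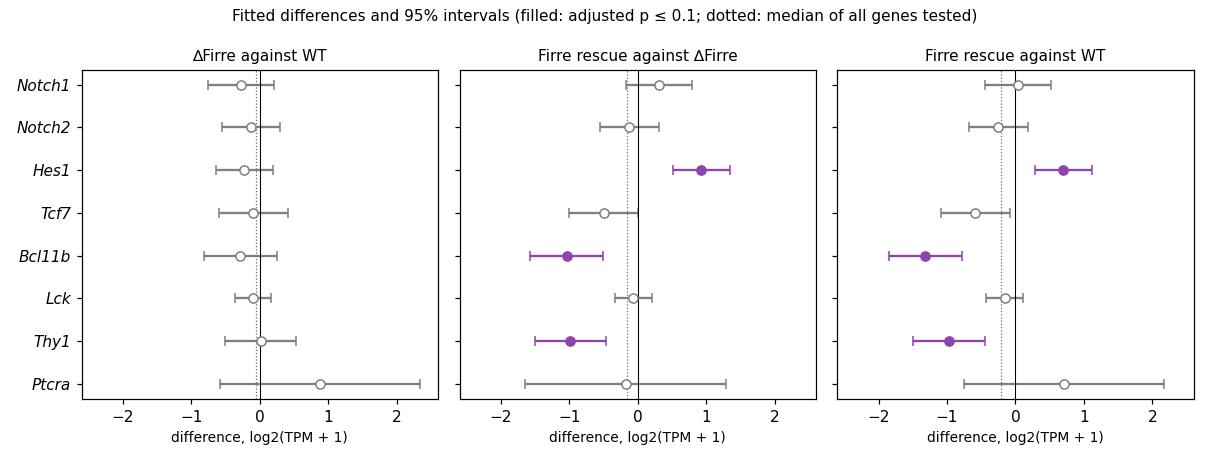
Fitted difference in log2(TPM + 1) (horizontal axes) with its 95% interval for the 8 genes tested, in the 3 comparisons; filled points were called, and the dotted line is the median of all genes tested. Hes1 lies at 0.93 and 0.70, Bcl11b at -1.04 and -1.32, and Thy1 at -0.98 and -0.97 in the Firre rescue comparisons, and no point is filled between ∆Firre and WT.

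Notch1 (chr2:26457902-26503822) encodes the receptor that drives T-lineage entry. Its levels were 84.4, 89.2, 87.2, and 89.9 TPM in WT mice 6, 8, 10, and 11, and 59.9, 63.9, 84.6, and 84.8 in ∆Firre mice 8, 9, 11, and 12. The 4 Firre rescue libraries held 85.5, 56.1, 145, and 94.9 TPM. WT libraries lay close together, while Firre rescue libraries covered the widest span and included both the lowest and the highest value of the 12. The differences were 0.31 ± 0.22 (SE) against ∆Firre (adjusted p = 0.348) and 0.04 ± 0.22 against WT (adjusted p = 0.922). Without Firre rescue mouse 2 the first became 0.54 and was called (adjusted p = 0.057).

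Notch2 (chr3:98013538-98150367), the receptor known for marginal zone B cells, held 49.3, 43.1, 46.6, and 47.9 TPM in WT and 40.0, 38.7, 50.1, and 42.6 in ∆Firre. In Firre rescue it held 39.1, 24.0, 54.9, and 45.2 TPM. The groups overlapped, and Firre rescue mouse 2 was again the lowest. The differences were -0.12 ± 0.20 against ∆Firre (95% interval -0.55 to 0.31) and -0.25 ± 0.20 against WT (-0.68 to 0.18).

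Hes1 (chr16:30065357-30067796) encodes a repressor of the basic helix-loop-helix family and is the classical target of Notch. It held 17.5, 19.7, 19.4, and 23.6 TPM in WT, 12.8, 20.7, 14.1, and 21.5 in ∆Firre, and 35.1, 24.8, 36.1, and 37.5 in Firre rescue. Every Firre rescue library was above every other library, although mouse 2 at 24.8 TPM came close to WT mouse 11 at 23.6. The rise was 0.93 ± 0.19 against ∆Firre, 1.90-fold on the scale of TPM + 1 (adjusted p = 0.00679), and 0.70 ± 0.19 against WT, 1.62-fold (adjusted p = 0.0277). Between 127 and 777 reads lay behind each value. The ratio of Hes1 to Notch1 within a library, which a single factor per library leaves unchanged, was 0.248 to 0.442 in Firre rescue, 0.167 to 0.324 in ∆Firre, and 0.207 to 0.263 in WT, so that Firre rescue overlapped both groups. This ratio and those of Bcl11b to Tcf7 and Thy1 to Lck were chosen after the levels were seen and are given with no test.

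Dtx1 (chr5:120680203-120711867), a ubiquitin ligase of the Deltex family and a Notch target in lymphocytes, was under the filter and was not tested. It held 0.319, 0.216, 0, and 0.743 TPM in WT, 0.117, 0, 0.523, and 0.542 in ∆Firre, and 0.768, 0.426, 1.42, and 0.544 in Firre rescue. Firre rescue libraries held 37, 25, 79, and 27 reads of it, and the other 8 libraries 0 to 18. The TPM ranges overlapped, and a library with 0 reads allows up to 3 reads by counting error alone.

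Tcf7 (chr11:52246527-52283383) held 138, 172, 209, and 249 TPM in WT, 104, 193, 205, and 231 in ∆Firre, and 131, 113, 146, and 111 in Firre rescue. ∆Firre mouse 8, at 104, was the lowest of all 12, and the other 3 ∆Firre libraries were above every Firre rescue library. The difference was -0.50 ± 0.23 against ∆Firre (adjusted p = 0.156) and -0.59 ± 0.23 against WT, where the adjusted p of 0.104 just missed the threshold. Without ∆Firre mouse 8 both were called, at -0.75 (adjusted p = 0.02) and -0.59 (adjusted p = 0.0354).

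Bcl11b (chr12:107910403-108004145) held 6.72, 9.01, 10.4, and 10.6 TPM in WT, 5.59, 8.81, 6.58, and 8.52 in ∆Firre, and 1.97, 3.28, 2.94, and 4.28 in Firre rescue. The highest Firre rescue library stayed below the lowest of the other 8. It fell by 1.04 ± 0.25 against ∆Firre, to 0.488 of its level (adjusted p = 0.013), and by 1.32 ± 0.25 against WT, to 0.401 (adjusted p = 0.0045), both on the scale of TPM + 1. Firre rescue libraries held 146 to 327 reads of Bcl11b despite their greater depth. The ratio of Bcl11b to Tcf7 was 0.0151 to 0.0386 in Firre rescue, 0.0321 to 0.0537 in ∆Firre, and 0.0426 to 0.0525 in WT. The Firre rescue range lay under that of WT and overlapped that of ∆Firre.

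Lck (chr4:129548344-129573641), the kinase that starts T cell receptor signaling, was high and even. It held 113, 137, 113, and 167 TPM in WT, 120, 124, 110, and 135 in ∆Firre, and 129, 114, 114, and 111 in Firre rescue. All groups overlapped. The differences of -0.06 ± 0.12 against ∆Firre and -0.16 ± 0.12 against WT had 95% intervals of -0.33 to 0.21 and -0.42 to 0.11.

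Thy1 (chr9:44043384-44048579), a surface glycoprotein carried by T cells and by innate lymphoid cells, held 86.2, 57.5, 54.6, and 137 TPM in WT, and 76.0, 66.0, 85.2, and 90.5 in ∆Firre. In Firre rescue it held 41.0, 33.0, 39.8, and 44.7 TPM, all under the lowest WT library. It fell by 0.98 ± 0.24 against ∆Firre (adjusted p = 0.0147) and by 0.97 ± 0.24 against WT (adjusted p = 0.0176), to 0.506 and 0.510 of its level. The ratio of Thy1 to Lck within a library was 0.290 to 0.401 in Firre rescue, 0.531 to 0.778 in ∆Firre, and 0.421 to 0.821 in WT, with no overlap between Firre rescue and the other groups.

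Cd3e (chr9:44998735-45009663) was at the limit of detection. It held 5, 0, 2, and 0 reads in WT, 3, 0, 0, and 4 in ∆Firre, and 0 in each of the 4 Firre rescue libraries, and 0 reads in a library allows up to 3. The highest level was 0.732 TPM, and the gene was not tested. The sort removed cells that bound an antibody against CD3, among those against other lineage antigens.

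Ptcra (chr17:46755663-46763712), the pre-T cell receptor alpha chain that pairs with a rearranged beta chain, varied from library to library. It held 0.656, 0, 3.33, and 0 TPM in WT, 0.16, 2.47, 2.0, and 5.84 in ∆Firre, and 2.47, 4.68, 0, and 1.57 in Firre rescue. A value of 0 occurred in 2 WT libraries and in 1 Firre rescue library. The intervals were wide, -1.64 to 1.29 against ∆Firre and -0.76 to 2.17 against WT, so that even large differences were not detectable.

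High and low values were unevenly spread over the mice of WT and ∆Firre. WT mouse 11 held the highest WT level of 7 of the 10 genes, among them Tcf7, Bcl11b, Lck, and Thy1, and ∆Firre mouse 12 the highest ∆Firre level of 8. WT mouse 6 and ∆Firre mouse 8 were each lowest in their group for 5 genes, of which Notch1, Hes1, Tcf7, and Bcl11b were the same. In Firre rescue the highest values were spread over the mice, with 1, 1, 4, and 3 genes in mice 1 to 4, and mouse 2 was lowest for Notch1, Notch2, Hes1, Dtx1, and Thy1. That library also had the lowest median ratio factor (the median over genes of its TPM relative to all libraries), at 0.834 against 0.949 to 1.08 in the other 11.

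By the likeness of pattern over the 12 libraries (root mean square difference of log2(TPM + 1) after centering each gene), the tested genes nearest to Hes1 were 6230427J02Rik at 0.20, Sdc4 at 0.20, a cell surface proteoglycan, and Smarca4 at 0.21, the ATPase of a chromatin remodeler. Those nearest to Bcl11b were ENSMUSG00000109378.1 at 0.23, Ccdc157 at 0.23, and Ahcyl2 at 0.24. Those nearest to Thy1 were Arl10 at 0.22, Rbl2 at 0.26, a pocket protein related to Rb, and Mdga1 at 0.26. None of these 9 genes belongs to the gene lists used here, and the SDs of the 3 genes themselves were 0.48, 0.65, and 0.59.

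The rest of the Notch pathway was described by lists. Of 51 listed genes 42 were tested. Between ∆Firre and WT 0 were called (1 had an unadjusted p under 0.05, and limma-voom called 0). Against ∆Firre 3 were called higher and 9 lower in Firre rescue, 28.6% of those tested, and against WT 1 higher and 10 lower, 26.2%, which is near the share of all genes called. The directions were sensitive to scaling: after median ratio rescaling 5 were higher and 5 lower against ∆Firre, and 4 and 4 against WT.

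Among ligands 2 of 5 passed the filter and neither was called as reported. Jag2 held 7.95 ± 2.85 TPM in Firre rescue and 5.09 ± 1.48 in ∆Firre, and was called higher in both comparisons after quantile normalization. Dll1 held 1.27 ± 1.07 TPM in Firre rescue, 3.65 ± 0.908 in ∆Firre, and 3.77 ± 2.39 in WT (-1.15 against ∆Firre, adjusted p = 0.104), and was called lower against ∆Firre after GC correction and with limma-voom. The other receptors, Notch3 and Notch4, were untested, and Notch4, the higher of the 2, had a mean of 0.472 TPM over all libraries. Of the 14 processing and modification genes, the sheddase Adam10 and the gamma-secretase subunit Ncstn were called lower in both Firre rescue comparisons (-0.25 and -0.29 against ∆Firre, -0.34 for both against WT), and the fucosyltransferase Pofut1 against WT alone (-0.44). None of these was called after median ratio rescaling, Ncstn and Pofut1 under none of the 5 scalings, and Adam10 turned to 0.19 and 0.06 after GC correction.

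In the transcription complex, 10 genes tested, Rbpj itself was lower by 0.44 against ∆Firre and by 0.42 against WT, but by 0.07 and 0.08 after GC correction, where neither was called. The call against WT was also lost after median ratio rescaling and quantile normalization (-0.23 with each). The coactivator gene Crebbp was called lower against WT (-0.58), and of the 5 scalings only limma-voom kept that call, with -0.48 to -0.38 under the other 4. Of 11 turnover genes the ubiquitin ligase gene Neurl3 had the lowest difference, -1.17 against ∆Firre and -1.24 against WT, and kept its call under all 5 scalings. Dtx2, a relative of Dtx1, was higher by 0.90 against ∆Firre (10.8 ± 2.59 TPM and 5.29 ± 1.01), also under all 5. Mib2 was higher by 0.62 against ∆Firre, and Numb, an inhibitor of Notch, lower by 0.82. Mib1 was lower by 0.48 and 0.65, and Fbxw7, which marks the Notch intracellular part for destruction, lower by 0.42 against ∆Firre and by 0.64 against WT. Mib1, Mib2, and Fbxw7 lost those calls after GC correction, and Numb kept its call only with limma-voom, at -0.78 to -0.55 under the other 4 scalings. The call of Fbxw7 against ∆Firre was also lost after median ratio rescaling and quantile normalization (-0.31 and -0.29).

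Of 5 other Notch targets tested, the cyclin gene Ccnd1 fell by 0.70 against ∆Firre and 0.91 against WT, and Gata3, a regulator of T and type 2 innate lymphoid cells, by 0.82 and 0.75. Gata3 against WT was not called after median ratio rescaling, quantile normalization, or GC correction (-0.57, -0.54, and -0.52). Hes5, a relative of Hes1, was called higher against WT by 1.12 (6.11 ± 1.76 TPM in Firre rescue, 2.58 ± 1.73 in WT, adjusted p = 0.0886), and was not called after GC correction (0.83) or with limma-voom, where the difference was 1.56. Among called targets, the rises of Hes1 and Hes5 stood beside falls of Ccnd1 and Gata3, so that these genes shared no direction. Nrarp, counted with the turnover genes, was higher by 0.65 against ∆Firre (adjusted p = 0.34) and by 0.997 against WT (adjusted p = 0.154). Neither difference was called, nor was that of Hes5 against ∆Firre (0.84). Of the targets never called as reported, Il2ra was lower by 0.93 and 0.56, and Myc differed by 0.09 and -0.17.

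**Figure D3:**
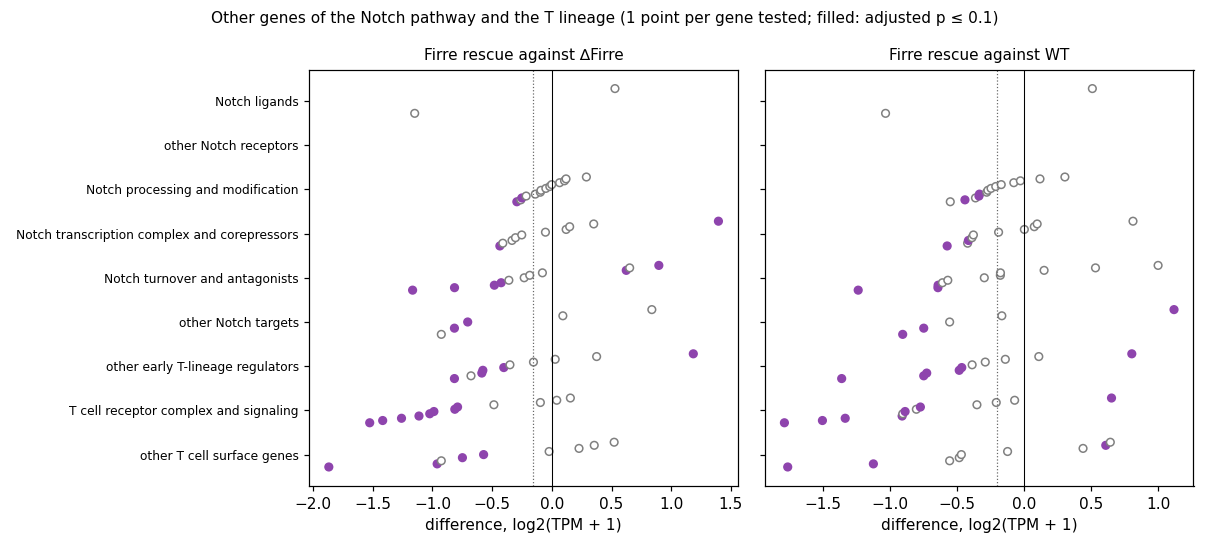
Fitted differences in log2(TPM + 1) (horizontal axes) of the tested genes of 9 lists (rows; 1 point per gene, filled where called), in Firre rescue against ∆Firre and against WT. Called points of the 3 T-lineage rows lie mostly left of 0, with 16 lower and 1 higher against ∆Firre, whereas the Notch rows hold 9 lower and 3 higher.

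Of 34 other T-lineage genes 31 were tested, and 0 were called between ∆Firre and WT (2 had an unadjusted p under 0.05, and limma-voom called 0). In Firre rescue 16 were lower and 1 higher against ∆Firre, 54.8% of those tested beside 27.9% of all genes, and 13 were lower and 3 higher against WT, 51.6% beside 24.3%. Over the 5 scalings the lower count was 9 to 16 against ∆Firre and 9 to 12 against WT, and the higher count 1 to 3 and 3 to 4. Their median difference was -0.58 against ∆Firre and -0.49 against WT. Gata3 stands in this set and among the Notch targets.

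Of 10 further regulators, 4 were lower and 1 higher against ∆Firre, and 5 and 1 against WT. Lef1, the close relative of Tcf7, went up, by 1.19 against ∆Firre and by 0.80 against WT (7.66 ± 1.47 TPM in Firre rescue, 2.85 ± 0.918 in ∆Firre, 3.96 ± 0.820 in WT), under all 5 scalings. Lmo2, an early progenitor gene, fell by 0.59 against ∆Firre, Runx1 by 0.58 and 0.73, and Zbtb7b, the CD4-lineage factor ThPOK, by 1.36 against WT. Runx1 against ∆Firre lost its call after GC correction.

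Of 12 genes of the T cell receptor complex and its signaling, 8 were lower against ∆Firre and 6 against WT. Skap1, an adaptor, fell by 1.42 and 1.34 (2.03 ± 0.526 TPM in Firre rescue, 7.03 ± 0.659 in ∆Firre, 6.76 ± 1.82 in WT). Trac was low everywhere, 1.67 ± 0.419 TPM in ∆Firre, 3.74 ± 3.87 in WT, and 0.120 ± 0.240 in Firre rescue, and its calls were lost after quantile normalization, that against ∆Firre also after GC correction. Trbc1, the most abundant of the list, held 128 ± 25.4 TPM in Firre rescue, 262 ± 60.7 in ∆Firre, and 242 ± 57.6 in WT, but it shares near-identical sequence with Trbc2, so that the split of reads between them is uncertain. Cd247, the zeta chain that natural killer cells also use, was higher against WT by 0.65.

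Of 9 other surface genes 4 were lower against ∆Firre, and 2 lower and 1 higher against WT. Under the 4 scalings other than limma-voom only 2 were lower against ∆Firre, Cd2 and Cd7, and Cd28 (-0.57 as reported) was not called. With limma-voom 5 were lower against ∆Firre, and 1 was higher under every scaling but GC correction. Cd2, an adhesion receptor, fell by 1.87 and 1.77 (4.08 ± 2.23 TPM in Firre rescue, 16.8 ± 5.20 in ∆Firre, 15.8 ± 6.03 in WT), and Cd7 by 0.96 and 1.13, under all 5 scalings. Ccr9, a homing receptor for the thymus, was lower by 0.75 against ∆Firre, a call that only limma-voom kept, with -0.70 to -0.41 under the other 4 scalings. Cd6 was higher by 0.61 against WT.

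Genes of other cell types moved in the same comparisons. RNA was measured from a sorted pool, in which fewer cells of a type and less RNA per cell cannot be told apart. Mature T cell markers were low, with a summed level of 33.9 to 74.3 TPM in WT, 52.5 to 78.4 in ∆Firre, and 16.6 to 59.2 in Firre rescue, and 2 of 4 tested were lower against ∆Firre (Trac and Trbc2) and 1 against WT (Trac), none of them after quantile normalization. The coreceptor gene Cd8a did not exceed 1.35 TPM in any library. The sort excluded cells with lineage antigens. The lineage antibodies listed for bone marrow did not include the natural killer antibody that the authors used on blood. The share of natural killer cells that the sort left was not measured. Natural killer cells can carry Thy1 and Tcf7, and their markers summed to 343 to 710 TPM in WT, 410 to 633 in ∆Firre, and 241 to 295 in Firre rescue. Of these markers 4 of 6 were lower against ∆Firre and 3 against WT, led by Ncr1 (-2.34 and -2.26), Klrb1c (-2.27 and -2.19), and Prf1 (-1.27 and -1.55). Only 2 were lower against ∆Firre after median ratio rescaling, quantile normalization, GC correction, or without abundant gene classes, and Prf1 was not among them, while Ncr1 and Klrb1c kept both calls under all 5 scalings.

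Markers of innate lymphoid cells type 2, which depend on Tcf7, Gata3, and Bcl11b, summed to 121 to 158 TPM in WT, 122 to 163 in ∆Firre, and 60.9 to 90.6 in Firre rescue. All 5 tested were lower against ∆Firre and 4 against WT, among them Il1rl1 (-1.79 and -1.92), Rora (-1.14 and -1.10), and Il17rb (-0.98 and -1.13). Areg was listed at 0 in every library, and Klrg1, Il13, and Il5 in every Firre rescue library. WT mice 11 and 6 held the highest WT levels of Thy1 and also the highest natural killer sums, 710 and 612 TPM. For Tcf7 and Bcl11b, mouse 11 held the highest WT levels (249 and 10.6 TPM) but mouse 6 the lowest (138 and 6.72). Among ∆Firre libraries the highest Thy1 level was in mouse 12 and the highest natural killer sum, 633 TPM, in mouse 9. The part of these cells in the levels of Thy1, Bcl11b, and Tcf7 was not tested.

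B-lineage markers went the other way, from 213 to 418 TPM in WT and 280 to 370 in ∆Firre to 835 to 1340 in Firre rescue, with 7 of 7 higher in both comparisons, Igll1 of the pre-B receptor by 2.43 and 2.20 and Cd79a by 1.46 and 1.67. Vpreb1 held 207 ± 48.2 TPM in Firre rescue and 35.5 ± 5.50 in ∆Firre. Basophil and mast cell markers summed to 1052 to 9045 TPM in WT, 2918 to 4291 in ∆Firre, and 64.0 to 142 in Firre rescue, with 6 of 6 lower, led by the protease gene Prss34 (-8.46 and -8.11). Lymphoid progenitor markers summed to 9522 to 13220, 9880 to 11960, and 10200 to 10890 TPM, with Rag1 higher by 0.73 and 0.85, and Ighm lower by 0.70 and 0.68, and Kit by 0.49 and 0.40. The reported counts of that list, 1 higher and 2 lower in both comparisons, became 5 higher and 1 lower against ∆Firre and 5 and 0 against WT after GC correction, and 4 and 0 against WT after median ratio rescaling. Rag1 kept its calls under all 5 scalings, Kit lost both after GC correction and the call against WT under 4 of 5, and Ighm lost the call against WT after GC correction and median ratio rescaling. Plasmacytoid dendritic cell markers summed to 1638 to 2175 TPM in Firre rescue and to 1023 to 1279 in the other groups, a difference carried by Ly6d, which also marks B-lineage CLPs (1258 ± 216 TPM in Firre rescue, 485 ± 42.1 in ∆Firre, 528 ± 54.2 in WT). Against ∆Firre 3 of that list were higher and 2 lower. Tcf4, a defining factor of these cells, was lower by 0.65 and 0.79 (not called after GC correction), and Siglech was not called (79.3 ± 26.8, 93.2 ± 14.3, and 105 ± 16.6 TPM in the same order). Antibody-secreting cell markers summed to 826 to 1549 TPM in WT, 1568 to 3350 in ∆Firre, and 224 to 369 in Firre rescue, a sum that in WT and ∆Firre was mostly Jchain (-6.23 and -4.94). Of its 5 genes 3 were lower against ∆Firre, with Prdm1 at -1.57 and Xbp1 at -0.60, whereas Sdc1 was higher by 0.68 (adjusted p = 0.0271), under all 5 scalings. Against WT 2 were lower. Of the eosinophil markers Siglecf was lower against ∆Firre (-1.09, not called after quantile normalization or GC correction), of the neutrophil and monocyte markers Mpo in both comparisons (-0.56 and -0.62), and no erythroid marker was called, the highest being Hba-a1 at a mean of 19.6 TPM. Their part in the results for the 10 genes was not tested.

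**Figure D4:**
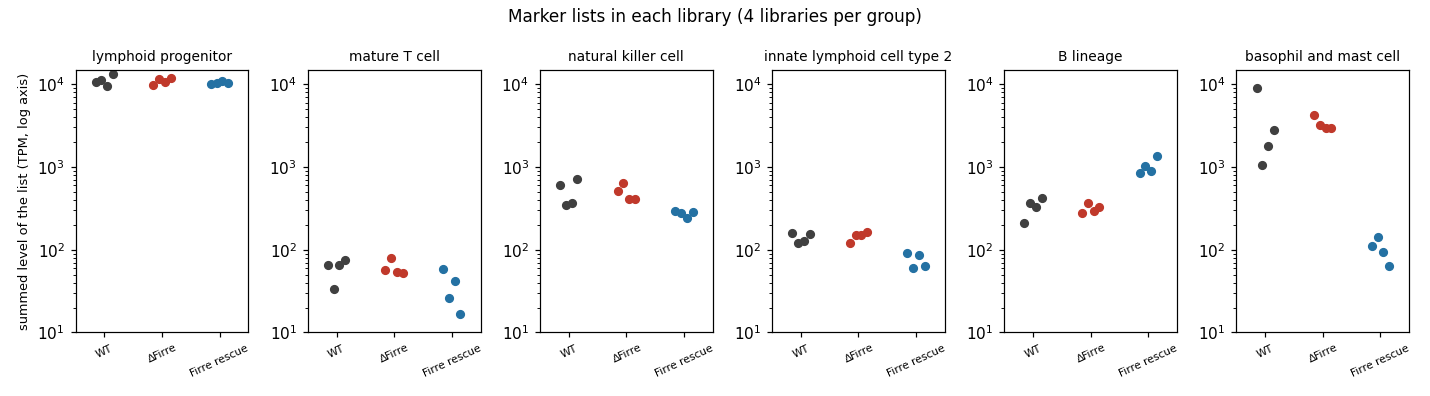
Summed TPM of 6 marker lists (vertical axes, log scale) in each library of the 3 groups, 1 point per library. Firre rescue libraries lie lower for natural killer cells (241 to 295), innate lymphoid cells type 2 (60.9 to 90.6), and basophils and mast cells (64.0 to 142), higher for the B lineage (835 to 1340), and among the others for lymphoid progenitors.

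The calls of Hes1, Bcl11b, and Thy1 did not turn on one setting. In 27 of 27 other settings each was called in the same direction in both Firre rescue comparisons, Hes1 between 0.79 and 1.06 against ∆Firre, Bcl11b between -1.24 and -0.61, and Thy1 between -1.08 and -0.87. Against WT the ranges were 0.61 to 0.89, -1.56 to -0.80, and -1.14 to -0.70. Some of the 27 settings, such as leaving out a library of the third group, can change the p-value but not the difference. Tcf7 stayed below 0 in every setting and was called in 1 of 27 against ∆Firre and in 5 of 27 against WT.

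**Figure D5:**
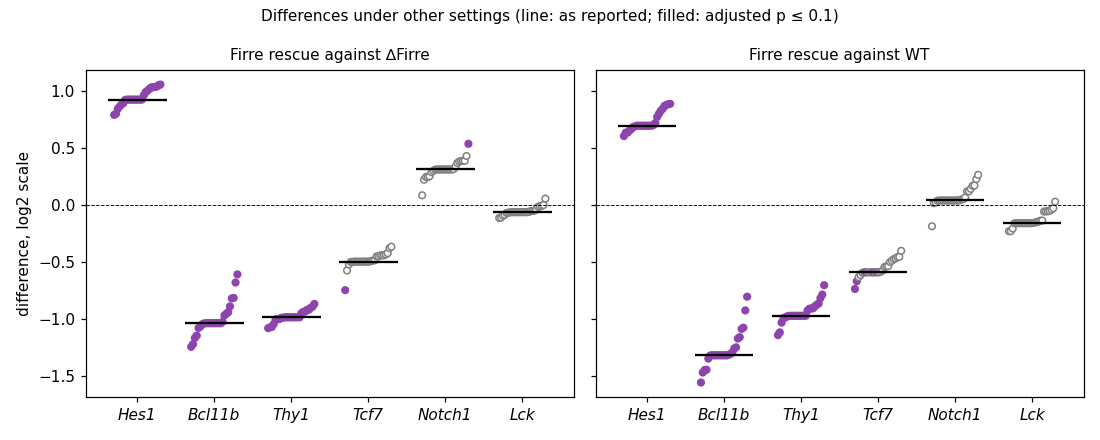
Fitted differences of 6 genes on the log2 scale (vertical axes) under each other setting (points, filled where called), with the reported value as a line, for Firre rescue against ∆Firre and against WT. All points of Hes1, Bcl11b, and Thy1 are filled and stay on their side of 0, those of Tcf7 stay below 0 and are mostly open, and those of Lck lie near 0.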

How the data were processed

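CLPs of 12 mice were sequenced by the authors as paired-end poly(A)+ libraries, 1 per mouse. The authors trimmed reads with cutadapt, mapped them to mm10 with TopHat2 2.1.1 and the Gencode vM9 annotation, counted them per gene with featureCounts, and deposited TPM (normalized by the authors for gene length and library size). Strand and multi-mapping settings are not given in the sources used here, so a gene and an overlapping antisense gene cannot be told apart. Groups were taken from the sample labels. TPM were set to log2(TPM + 1), so a fold change of a low gene is understated. A gene was fitted where its mean TPM reached 1, with limma 3.58.1 in R 4.3.3 (3 groups in one fit, variance trend), with two-sided p-values adjusted by Benjamini-Hochberg over the 14479 genes tested. The fit was tested on simulated data.

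Whole reads were recovered for each gene from the ratios of its TPM between libraries. They are the smallest whole numbers that fit these ratios within 0.02. This succeeded for 99.4% of tested genes (14396), and the reads served for depth and for limma-voom as an alternative. Totals leave out a few genes whose reads were not recovered. Reads carry no molecular identifiers, so limits on 0 reads cover counting error only. Gene symbols were matched for 32799 of the 47643 identifiers, and Igj, Siglec5, and Sfpi1 were read for Jchain, Siglecf, and Spi1. Gene positions and promoters came from RefSeq on GRCm38.p6, and exon GC content from an older annotation joined by identifier (90.4% of tested genes). Tables were made with Python 3.11.15 and numpy 2.4.6.

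The 10 genes and the lists were chosen with earlier results of these data known. All 10 are given in every library. In each list the called genes are named where 3 or fewer were called in a direction, otherwise the 3 of largest difference, or the most abundant gene where none was called; some genes that this rule names are not reported here. Some other genes were added after their values were seen (Trbc1, Cd8a, and the promoter of Bcl11b among them). For each called gene the 3 nearest in pattern are named. Each p-value weighs a group difference against the spread between mice within groups, pooled over the 3 groups and moderated over genes. It does not cover the library number range, which in Firre rescue cannot be separated from the group.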

Additional observations from a re-analysis of the deposited data

Results flagged for a closer look

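A gap test for a library far from the other 3 of its group (Dixon's test at the 95% level, on log2 values) was run on 63 sets, the 10 genes and 11 marker sums in 3 groups. It marked 3 libraries, and chance alone marks about 1 set in 20, or 3.2 of 63. Hes1 in Firre rescue mouse 2 stood at 4.69 in log2(TPM + 1), against 5.17 to 5.27 in the other 3. Lck in Firre rescue mouse 1 stood at 7.02, against 6.81 to 6.85. The summed mature T cell markers in WT mouse 8 stood at 5.13, against 6.05 to 6.24.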

How the results depend on the processing

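The count of called genes among the 8 tested was 0 between ∆Firre and WT in every setting, and stayed within 1.5 times the reported count in both Firre rescue comparisons. Of 653 values for single genes over the other settings, 627 kept their direction and side of the threshold, 7 became called, and 19 changed sign, all 19 from values that were not called. Part of these values could not change direction. A stricter threshold, another filter or variance trend, and the loss of a library from the third group leave the difference itself as reported. With GC correction Lck between ∆Firre and WT became 0.031 and Tcf7 0.019, and with GC correction and the replicate block 0.043 and 0.036. Against ∆Firre, Lck became 0.058 with median ratio rescaling and 0.0017 with limma-voom, and Ptcra 0.34 with quantile normalization. Lck against WT became 0.031 with median ratio rescaling. Leaving out 1 library at a time, the differences between ∆Firre and WT ranged from -0.17 to 0.022 for Lck, from -0.16 to 0.28 for Thy1, and from -0.24 to 0.16 for Tcf7. Those against ∆Firre ranged from -0.28 to 0.11 for Notch2 and from -0.63 to 0.30 for Ptcra, and that of Notch1 against WT from -0.19 (without Firre rescue mouse 3) to 0.27 (without mouse 2). The causes were not tested. Tcf7 against WT became called with a mean TPM of at least 5 (adjusted p = 0.0917), with only the 2 groups in the fit (0.0825), and without WT mouse 6 (0.0643), ∆Firre mouse 8 (0.0354), or Firre rescue mouse 3 (0.0913). With no filter, Dtx1 differed by 0.46 against ∆Firre (adjusted p = 0.266) and 0.44 against WT (0.313), and Cd3e by -0.27 and -0.28 (0.459 and 0.475). WT and ∆Firre mice share the numbers 8 and 11, but the deviations of same-numbered libraries did not move together (correlations -0.03 and -0.04 across genes), so the numbers were not taken as pairs. With the mouse number as a replicate block 0 members were called between ∆Firre and WT and 3 in each other comparison, and over all genes the block left 2 higher and 1 lower. Depth limits Dtx1, Cd3e, and Ptcra, which had at most 79, 5, and 67 reads in any library.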
